A study of Homo sapiens with 15 samples.

Results

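Immediate early genes are genes that cells switch on directly after a stimulus, before any new protein is made. The set comprised 10 of them, chosen by name: FOS, FOSB and FOSL1, JUN and JUNB, EGR1, EGR2 and EGR3, and IER2 and IER3. Of these, 9 carried a probe set with that gene symbol, each with a single probe set, out of 17687 named genes, and EGR2 was not analysed here. The data were 15 Affymetrix arrays, which read each transcript along its whole length, from C42B, a castration-resistant human prostate cancer line derived from LNCaP, and all cells were grown for 3 days in RPMI with 10% fetal bovine serum and then exposed for 6 h. The groups were 0.125% DMSO as vehicle (3 arrays), 10 µM enzalutamide (2 arrays), 15 µM PF-543 (3 arrays), 15 µM ABC294640 (1 array), 10 µM enzalutamide with 15 µM PF-543 (3 arrays), and 10 µM enzalutamide with 15 µM ABC294640 (3 arrays). Enzalutamide is a drug that blocks the androgen receptor, PF-543 inhibits sphingosine kinase 1 and ABC294640 (opaganib) inhibits sphingosine kinase 2. Both kinases make sphingosine 1-phosphate, a lipid that signals through cell surface receptors. C42B is a single cell line, and the labels do not say whether arrays of a group came from separate cultures, so p-values measure only the spread between these arrays, which may be technical.

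FOS and JUN family proteins pair through leucine zippers to form the transcription factor AP-1, and the EGR proteins are zinc finger transcription factors. Growth factor and serum signals reach these genes through ERK and other MAP kinases, which act on promoter-bound factors such as SRF, its ETS partners and CREB. The induction is usually brief, because the messenger RNAs are unstable and the products feed back on their own genes. AP-1 and the androgen receptor are known to meet on shared regulatory DNA in prostate cells.

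The 150 bases before the start site are printed for 4 genes, JUN and JUNB because the results lean on them most, and FOS and EGR1 as the classical readouts of serum signals. RefSeq promoter windows (GRCh38.p14) were found for 7 of the 10 genes, and the missing ones were FOSL1, EGR3 and IER3. Capitals mark matches, on either strand, to the CArG box (the SRF site), TGACATCA (the AP-1-like site known from the JUN promoter), TGACG (the core of the CREB site, which also lies inside the full site TGACGTCA), GGGCGG (the SP1 site) and TATAAA; TGACGTCA and the AP-1 site TGACTCA were searched as well. The windows are JUN at chr1:58784048-58784197 (minus strand), JUNB at chr19:12791336-12791485 (plus strand), FOS at chr14:75278678-75278827 (plus strand) and EGR1 at chr5:138465329-138465478 (plus strand).
JUN: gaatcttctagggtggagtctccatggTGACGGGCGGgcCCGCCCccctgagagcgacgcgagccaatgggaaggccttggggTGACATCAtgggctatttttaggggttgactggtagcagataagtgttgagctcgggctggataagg
JUNB: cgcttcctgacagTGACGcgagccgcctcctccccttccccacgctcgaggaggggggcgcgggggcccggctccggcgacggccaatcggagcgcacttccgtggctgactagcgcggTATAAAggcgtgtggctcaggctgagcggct
FOS: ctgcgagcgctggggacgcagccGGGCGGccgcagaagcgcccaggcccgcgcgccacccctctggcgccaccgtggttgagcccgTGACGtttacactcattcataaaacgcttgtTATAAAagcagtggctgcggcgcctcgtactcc
EGR1: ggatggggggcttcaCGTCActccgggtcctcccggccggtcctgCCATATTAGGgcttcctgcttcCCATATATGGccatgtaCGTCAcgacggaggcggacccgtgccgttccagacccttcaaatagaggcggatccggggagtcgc

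Counted from the start site, JUN held TGACATCA from -67 to -60, as 1.96% of the 35116 windows of this length did. Its TGACG, from -123 to -119, shares a base with the first of 2 SP1 matches. EGR1 held 2 CArG boxes, from -105 to -96 and from -83 to -74, a motif found in 0.769% of windows. JUN, JUNB and FOS had no CArG match in these 150 bases. Bases further upstream were not searched, so a site there would be missed. TGACG was in all 4 windows, and in 15.4% of all windows. JUNB (-31 to -26) and FOS (-33 to -28) held TATAAA, as 6.71% of windows did, and SP1 matches, in FOS and JUN here, were in 36.8%. TGACGTCA (1.4% of windows) and TGACTCA (2.89%) had no match in the 4 windows. A match describes the letters only, and binding was not measured.

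Before the comparisons, the arrays were set against their labels and each other. Of 8 measured luminal prostate markers, among them KLK3 and FOLH1, 7 lay above the third quartile of signal on every array and all 8 above the median, while the basal keratins KRT5 and KRT14 lay below the median on every array. Among markers of other cell types, all 3 of endothelium, 2 of 3 of leukocytes and 3 of 4 of fibroblasts lay below the median on every array, and the fibroblast gene COL1A2 lay above it. The summed log2 signal of the fibroblast markers was 27.7 to 28.2 for DMSO and 26.4 to 27.9 for the treated arrays, and its part in any result was not tested. The DMSO arrays stood apart in their dim range: their first quartile of log2 signal lay between 4.71 and 4.76, against 4.62 to 4.68 for the 12 treated arrays. Its part in the differences of dim genes from DMSO was not tested. Differences from DMSO are therefore set beside comparisons that use no DMSO array.

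Most immediate early genes sat in the dim part of the array at this time. FOS, FOSB, FOSL1, EGR1, EGR3 and IER3 were below the array's median signal on all 15 arrays, and EGR3 was below the first quartile on all 15. Their mean log2 signals were 4.62 for FOS, 4.62 for FOSB, 5.31 for FOSL1, 4.69 for EGR1, 3.6 for EGR3 and 5.15 for IER3. JUNB averaged 7.17, JUN 7.85 and IER2 10.03. Signals of different probe sets depend on their probes, so these levels do not order the genes by transcript number, and no detection call was available to tell a dim probe set from background. From the lowest to the highest array the genes spanned a median of 0.72 log2 units, against 0.71 over all genes.

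**Figure D1:**
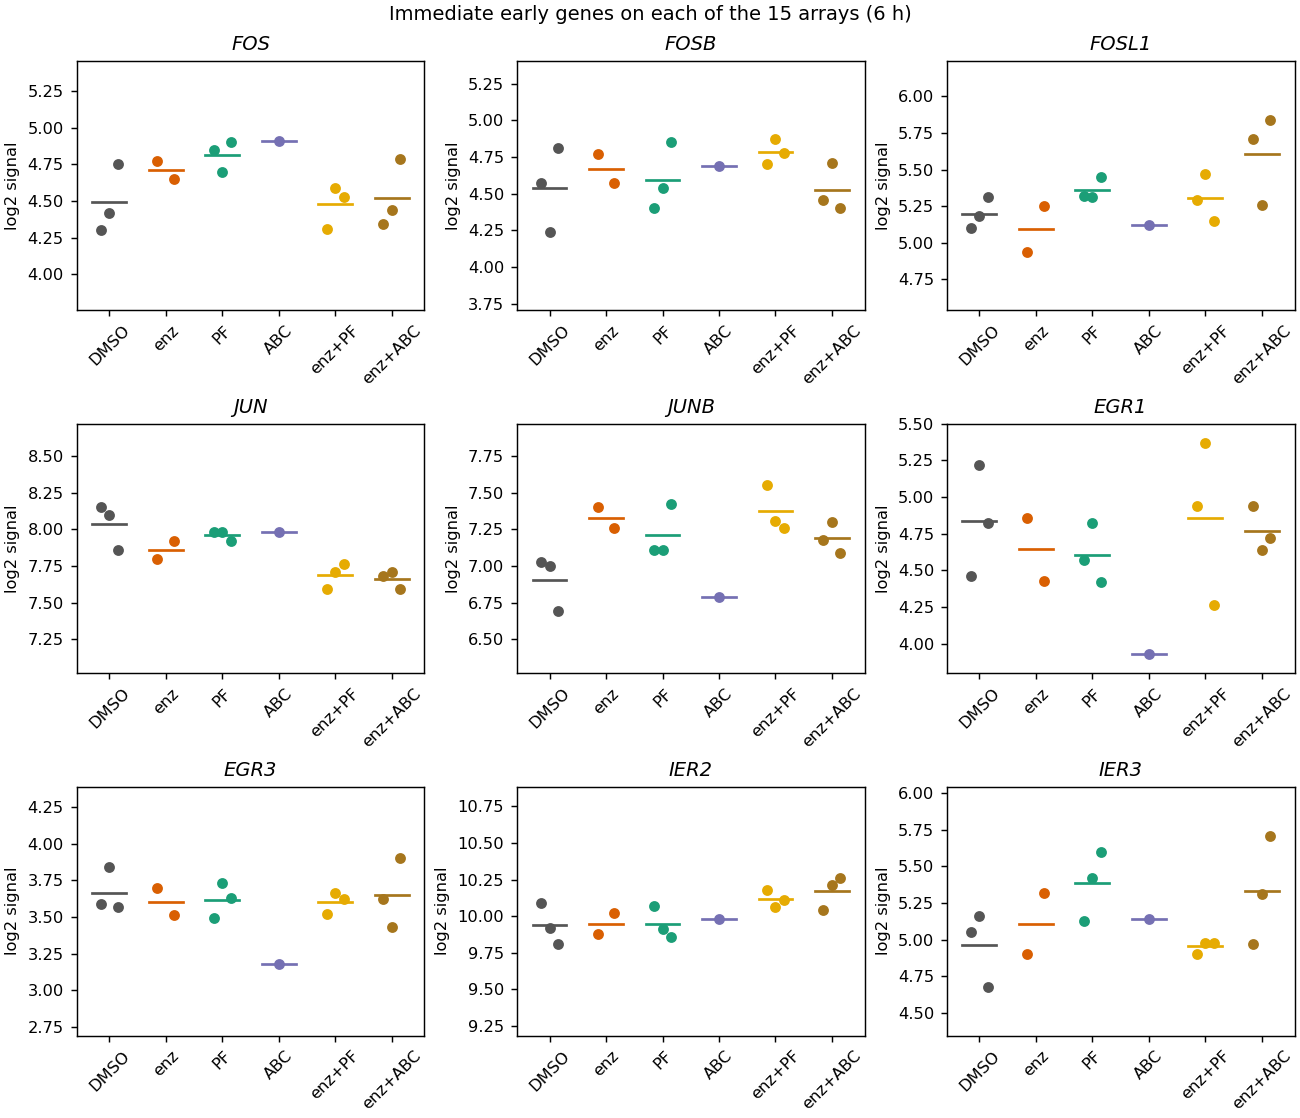
Log2 signal of the 9 measured immediate early genes on each array (points) with group means (bars), by treatment at 6 h; every panel spans 1.7 log2 units. JUN lies lowest in both combinations with enzalutamide (7.59 to 7.76), and EGR1 spreads most within groups.

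No immediate early gene passed in any comparison. Of the 9 genes, 0 passed in each of the 14 comparisons (limma, Benjamini-Hochberg adjusted p under 0.05 over all genes), and the smallest adjusted p was 0.0759. Among all genes, 0.311% passed for enzalutamide against DMSO, 0.565% for PF-543, 0 for the single ABC294640 array, 2.02% for enzalutamide plus PF-543 and 0.701% for enzalutamide plus ABC294640. Without DMSO arrays, 0.0283% passed for PF-543 added to enzalutamide, 0 for ABC294640 added to enzalutamide, 0.311% for enzalutamide added to PF-543 and 0.0792% for enzalutamide added to ABC294640. The share was 0.0961% for PF-543 against ABC294640 with enzalutamide, 0.0170% without it, 2.03% for all treated groups against DMSO, and 0 for either interaction of enzalutamide with an inhibitor. With so few genes called, a count of 0 among 9 lies near the background and says little about the set.

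At an unadjusted p under 0.05, 30 of the 126 tests of the 9 genes were below the line, and these tests share arrays. Among all genes the share ran from 5.64% to 19.6% by comparison. Many of the 30 came from comparisons that use the single ABC294640 array, so the total is not read as a result. Against DMSO the counts were 1 of 9 for enzalutamide (12.9% of all genes), 3 for PF-543 (15.5%), 2 for ABC294640 (9.57%), 4 for enzalutamide plus ABC294640 (16.0%) and 2 for enzalutamide plus PF-543 (18.7%). Without DMSO arrays they were 0 for PF-543 added to enzalutamide (7.83%), 1 for ABC294640 added to it (6.78%), 3 for enzalutamide added to PF-543 (8.27%) and 5 for enzalutamide added to the single ABC294640 array (6.95%). PF-543 against ABC294640 gave 0 with enzalutamide (7.21%) and 2 without it (5.64%), all treated groups against DMSO gave 2 (19.6%), and the interactions gave 1 with PF-543 (8.07%) and 4 with ABC294640 (8.25%). The 5 genes for enzalutamide added to ABC294640 and the 4 of its interaction rest on the single ABC294640 array, and the interaction uses the DMSO arrays as well. The median difference over the 9 genes was between log2 -0.06 and 0.06 in each of the 5 comparisons with DMSO, where the median of all genes was -0.01. Of the 126 intervals at 95%, 116 lay within a 2-fold change either way. The other 10 were EGR1 in 3 comparisons with the single ABC294640 array and 7 values in the interactions. A moderated F-test over the 6 groups, added after these counts were known, called 0 of the 9 genes and 0.780% of all genes; its unadjusted p was under 0.05 for JUN and JUNB, as for 14.8% of all genes.

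A plainer view is whether the arrays of both sides separate. Against DMSO, 1 of the 9 genes separated for enzalutamide (28.1% of all genes), 1 for PF-543 (20.2%), 3 for the single ABC294640 array (55.0%), 2 for enzalutamide plus PF-543 (23.7%) and 2 for enzalutamide plus ABC294640 (19.2%). Without DMSO arrays, 3 separated when PF-543 was added to enzalutamide (24.0%), 3 when ABC294640 was added to it (20.7%), 3 when enzalutamide was added to PF-543 (14.6%) and 7 when it was added to the single ABC294640 array (50.0%). PF-543 against the ABC294640 array separated 5 (49.8%), and all treated arrays against DMSO separated 0 (3.45%).

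**Figure D2:**
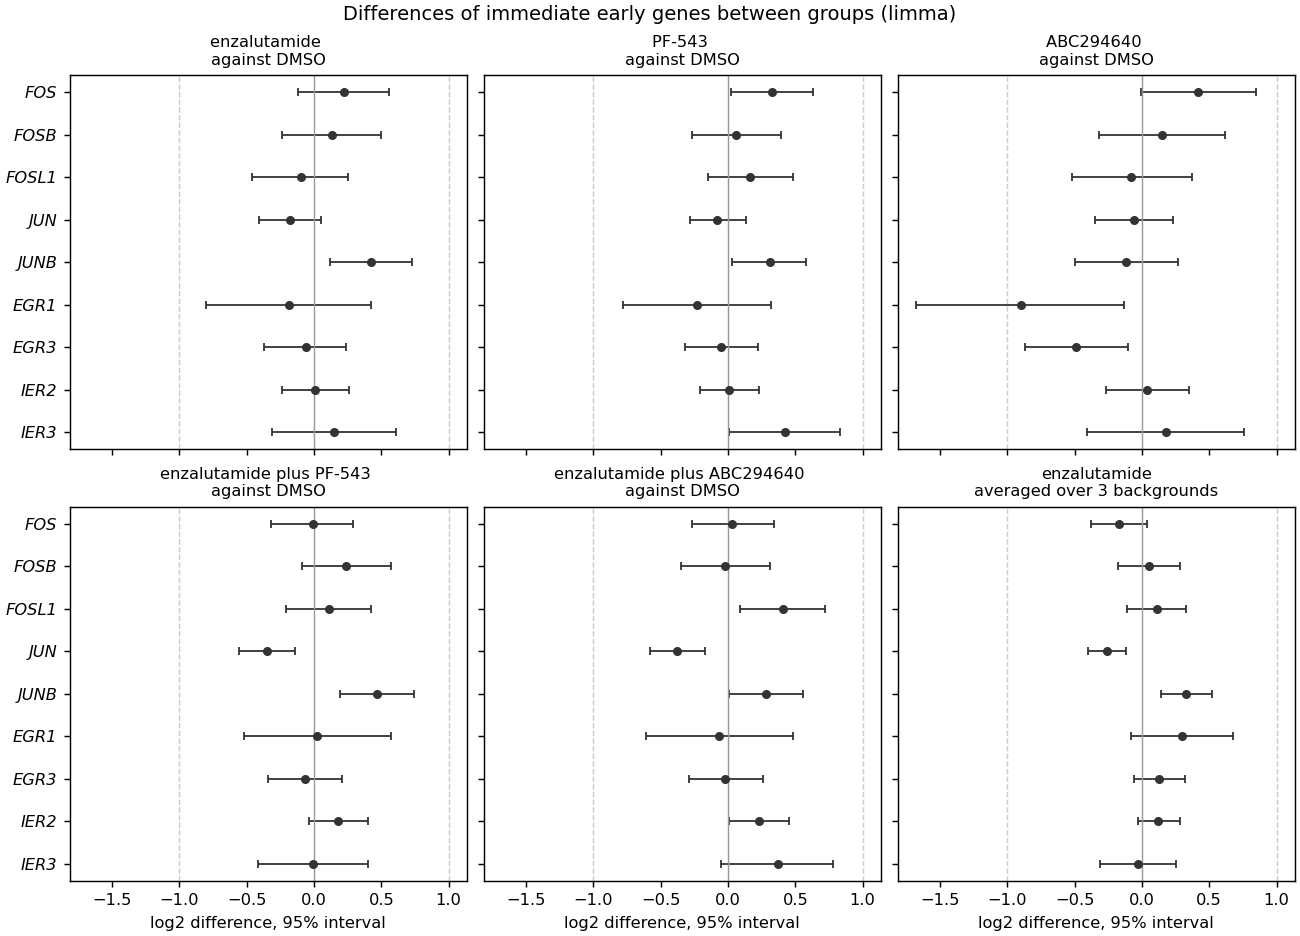
Log2 differences of the 9 genes with 95% intervals (limma) for the 5 treated groups against DMSO and for enzalutamide averaged over 3 backgrounds; dashed lines mark 2-fold. Only EGR1 on the single ABC294640 array has an interval that crosses a dashed line, reaching log2 -1.68.

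JUN, the AP-1 subunit that drives proliferation in many cells, had its lowest signals where enzalutamide was combined with either inhibitor. JUN was at 8.15, 8.1 and 7.86 on the DMSO arrays, at 7.8 and 7.92 with enzalutamide, at 7.98, 7.98 and 7.92 with PF-543, and at 7.98 with ABC294640. It was at 7.59, 7.71 and 7.76 with enzalutamide plus PF-543, and at 7.68, 7.71 and 7.59 with enzalutamide plus ABC294640. All 6 combination arrays were below all 9 others. That split was read from the values afterwards, and its share among all genes was not counted. The enzalutamide arrays alone overlapped DMSO.

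Against DMSO, JUN differed by log2 -0.35 with enzalutamide plus PF-543 (SE 0.10, limma adjusted p = 0.0759) and by -0.38 with enzalutamide plus ABC294640 (SE 0.10, adjusted p = 0.0917), folds of 1.27 and 1.3. The first of these passed when the dimmest 25% of genes were left out (adjusted p = 0.0481). It also passed without DMSO replicate 3 (log2 -0.44, adjusted p = 0.0457), the DMSO array with the lowest JUN signal. In 22 of 24 alternatives it did not pass, and the adjusted p ranged up to 0.2. Enzalutamide alone gave -0.18 (SE 0.11, adjusted p = 0.52). With no DMSO array in the difference, enzalutamide added to PF-543 gave -0.27 (SE 0.10, adjusted p = 0.439) and enzalutamide added to ABC294640 gave -0.32 (SE 0.13, adjusted p = 0.684). PF-543 alone (-0.08, 95% interval -0.28 to 0.13) and ABC294640 alone (-0.06, -0.35 to 0.23) had intervals around 0. Added to enzalutamide, PF-543 gave -0.17 (SE 0.11, adjusted p = 0.747) and ABC294640 gave -0.20 (SE 0.11, adjusted p = 0.786). The interaction of enzalutamide with PF-543 was -0.10 (95% interval -0.41 to 0.21). With the single ABC294640 array it was -0.14. A fall of JUN particular to the combinations was therefore not shown.

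JUNB, a related AP-1 subunit that pairs with the same partners and can oppose JUN, went the other way. JUNB was at 7.03, 7 and 6.69 on the DMSO arrays, at 7.4 and 7.26 with enzalutamide, at 7.11, 7.11 and 7.42 with PF-543, and at 6.79 with ABC294640. It was at 7.55, 7.31 and 7.26 with enzalutamide plus PF-543 and at 7.18, 7.3 and 7.09 with enzalutamide plus ABC294640. Every group except the single ABC294640 array had all its arrays above all DMSO arrays. These separations all use the same DMSO arrays, and the share of all genes that showed them together was not counted. JUNB was the gene that separated in the first 2 of these groups, and JUN and JUNB were those in both combinations.

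The JUNB differences from DMSO were log2 0.42 with enzalutamide (SE 0.14, limma adjusted p = 0.233), 0.31 with PF-543 (SE 0.13, adjusted p = 0.272), 0.47 with enzalutamide plus PF-543 (SE 0.13, adjusted p = 0.0759) and 0.28 with enzalutamide plus ABC294640 (SE 0.13, adjusted p = 0.294). With no DMSO array in the difference, enzalutamide added 0.16 to PF-543 (SE 0.13, adjusted p = 0.804) and 0.40 to the single ABC294640 array (SE 0.18, adjusted p = 0.707). The order of JUNB group means ran from ABC294640 (6.79) and DMSO (6.91) through enzalutamide plus ABC294640 (7.19), PF-543 (7.21) and enzalutamide (7.33) to enzalutamide plus PF-543 (7.37), and no tested pair of groups differed past the threshold.

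After these values were seen, the enzalutamide effect was averaged over its 3 backgrounds (none, PF-543 and ABC294640), which gives the single ABC294640 array the weight of a whole group. JUN then differed by log2 -0.26 (95% interval -0.40 to -0.12, limma adjusted p = 0.107) and JUNB by 0.33 (0.14 to 0.52, adjusted p = 0.128), where 0 of the 9 genes and 0.882% of all genes passed; at an unadjusted p under 0.05, these were the 2 genes of 9 below the line (10.3% of all genes). The 8 arrays with enzalutamide had JUN at 7.59 to 7.92 with a median of 7.71, and the 7 arrays without it at 7.86 to 8.15 with a median of 7.98. JUNB was at 7.09 to 7.55 (median 7.28) against 6.69 to 7.42 (median 7.03). Both genes therefore overlapped between the sides, JUN by a narrow margin and JUNB over a wider one, and 0.673% of all genes did not. Across the 15 arrays JUN and JUNB had a Pearson r of -0.47 and a Spearman rho of -0.51, a description over arrays that share treatments. Within groups the relation was not inverse: their deviations from the group means had an r of 0.17 over the 14 arrays in groups with replicates.

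**Figure D3:**
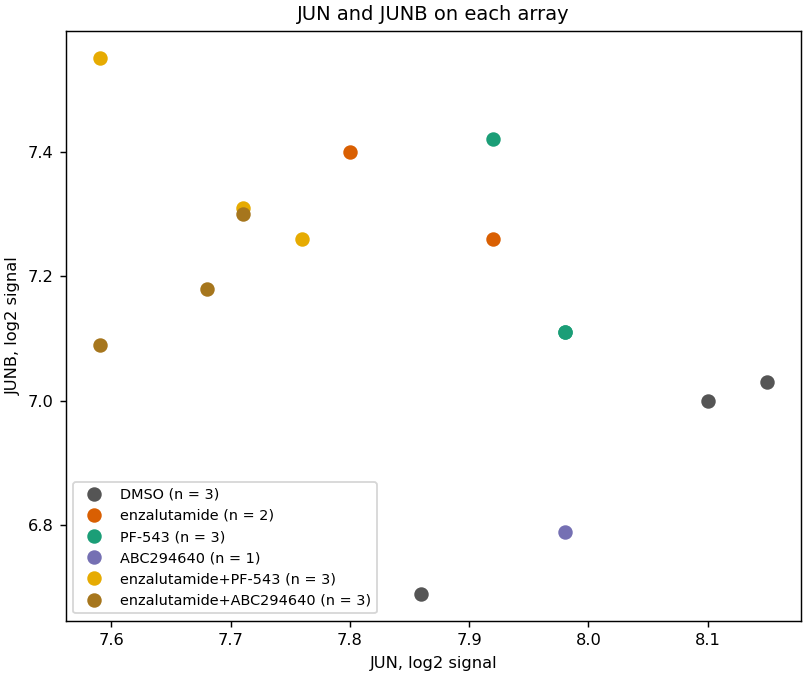
JUN against JUNB, both as log2 signal, one point per array and coloured by group (2 PF-543 arrays share the point at 7.98 and 7.11). The 6 combination arrays lie at the left, at JUN signals of 7.59 to 7.76. DMSO replicates 1 and 2 lie at the right, at JUN signals of 8.15 and 8.1. DMSO replicate 3 lies nearer the middle (JUN 7.86) and lowest for JUNB (6.69), with the ABC294640 array (7.98 and 6.79) also low.

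FOS, which forms stable pairs with the JUN proteins, was dim on every array. FOS was at 4.3, 4.42 and 4.75 with DMSO, at 4.77 and 4.65 with enzalutamide, at 4.85, 4.7 and 4.9 with PF-543 and at 4.91 with ABC294640. It was at 4.31, 4.59 and 4.53 with enzalutamide plus PF-543 and at 4.34, 4.44 and 4.79 with enzalutamide plus ABC294640. Means of the single-drug groups were thus above those of DMSO and of both combinations. Enzalutamide and PF-543 overlapped DMSO, while the ABC294640 array lay above all DMSO arrays and above both combinations. The arrays of enzalutamide plus PF-543 lay below all arrays of either drug alone, and those of enzalutamide plus ABC294640 overlapped enzalutamide.

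PF-543 against DMSO gave FOS a difference of log2 0.33 (SE 0.14, limma adjusted p = 0.294), and enzalutamide against DMSO 0.22 (SE 0.16, adjusted p = 0.602). Enzalutamide added to PF-543 gave -0.34 (SE 0.14, adjusted p = 0.542), with all 3 combination arrays below all 3 PF-543 arrays, a gap that 14.6% of all genes showed in either direction. Whether enzalutamide acted differently with PF-543 than alone was tested as an interaction, which gave FOS log2 -0.56 (95% interval -1.02 to -0.10, adjusted p = 0.556), and with the single ABC294640 array -0.61 (-1.16 to -0.05, adjusted p = 0.577). Neither passed.

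FOSB, a close relative of FOS, ranged from 4.24 to 4.87 over all arrays, a span of 0.63 log2 units. Its group means ran from 4.52 with enzalutamide plus ABC294640 to 4.78 with enzalutamide plus PF-543, and the difference between these 2 groups was log2 0.26 (95% interval -0.07 to 0.59). FOSL1 (FRA-1), the FOS relative that lacks a strong activation domain, was highest with enzalutamide plus ABC294640, at 5.71, 5.26 and 5.84. FOSL1 was at 5.1, 5.18 and 5.31 with DMSO, at 4.94 and 5.25 with enzalutamide, at 5.32, 5.31 and 5.45 with PF-543, at 5.12 with ABC294640, and at 5.29, 5.47 and 5.15 with enzalutamide plus PF-543.

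ABC294640 added to enzalutamide gave FOSL1 log2 0.51 (95% interval 0.15 to 0.86, limma adjusted p = 0.612), with the 3 arrays above both enzalutamide arrays by as little as 0.01 log2 units. Such a gap, in either direction, was found for 20.7% of all genes. Against DMSO the same group gave 0.41 (SE 0.15, adjusted p = 0.204), with overlapping arrays. Leaving out single arrays moved the 0.51 between 0.35 and 0.68, and no alternative took it past the threshold.

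EGR1, a zinc finger factor and the classical readout of ERK signalling, varied more between arrays of one group than most genes. Its SD within groups was 0.36 log2 units, at the 96.4 percentile of all genes, whose median was 0.18. EGR1 was at 4.46, 5.22 and 4.82 with DMSO, at 4.86 and 4.43 with enzalutamide, at 4.57, 4.82 and 4.42 with PF-543, at 4.94, 5.37 and 4.26 with enzalutamide plus PF-543, and at 4.94, 4.64 and 4.72 with enzalutamide plus ABC294640. These 5 groups overlapped throughout, and the ABC294640 array, at 3.93, was below all of them.

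EGR1 on that array differed from DMSO by log2 -0.90 (95% interval -1.68 to -0.13, limma adjusted p = 0.462), and no replicate exists to show whether the array is typical. EGR3, a relative induced by the same signals, was also lowest there, at 3.18 against 3.43 to 3.9 on the other 14 arrays (log2 -0.49 against DMSO, 95% interval -0.87 to -0.10, adjusted p = 0.43). Adding enzalutamide to ABC294640 gave 0.84 for EGR1 (adjusted p = 0.684) and 0.47 for EGR3 (adjusted p = 0.622), both of which rest on the same array. EGR1 and EGR3 had the highest correlation of the 36 pairs, a Pearson r of 0.61 over 15 arrays (Spearman rho 0.48), which was 0.37 (rho 0.36) over the 14 arrays without ABC294640. For the 4 other treated groups, EGR3 differed from DMSO by log2 -0.07 to -0.02.

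IER2, a nuclear protein induced with FOS and JUN, was the brightest of the probe sets and among the steadiest, with a range of 9.81 to 10.26 and an SD within groups of 0.11 (18.5 percentile). IER2 was at 10.09, 9.92 and 9.81 with DMSO, at 9.88 and 10.02 with enzalutamide, at 10.07, 9.91 and 9.86 with PF-543 and at 9.98 with ABC294640, so these groups overlapped. IER2 was at 10.18, 10.06 and 10.11 with enzalutamide plus PF-543 and at 10.04, 10.21 and 10.26 with enzalutamide plus ABC294640. The differences from DMSO were log2 0.18 (SE 0.10, limma adjusted p = 0.381) and 0.23 (SE 0.10, adjusted p = 0.292) for the combinations, and 0.01 for enzalutamide (95% interval -0.24 to 0.26) and for PF-543 (-0.21 to 0.23). Both combinations overlapped DMSO and lay above both arrays of enzalutamide alone.

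IER3, which protects cells from apoptosis in many settings, spread widely within groups (SD 0.26, 80.4 percentile). IER3 was at 5.05, 5.16 and 4.68 with DMSO, at 5.13, 5.42 and 5.6 with PF-543, and at 4.97, 5.31 and 5.71 with enzalutamide plus ABC294640. With enzalutamide plus PF-543 it stayed at 4.9, 4.98 and 4.98, below all 3 PF-543 arrays. Enzalutamide added to PF-543 gave log2 -0.43 (95% interval -0.84 to -0.02, limma adjusted p = 0.584), and PF-543 against DMSO gave 0.42 (0.01 to 0.83, adjusted p = 0.316). The enzalutamide arrays were at 4.9 and 5.32, and the ABC294640 array was at 5.14.

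**Figure D4:**
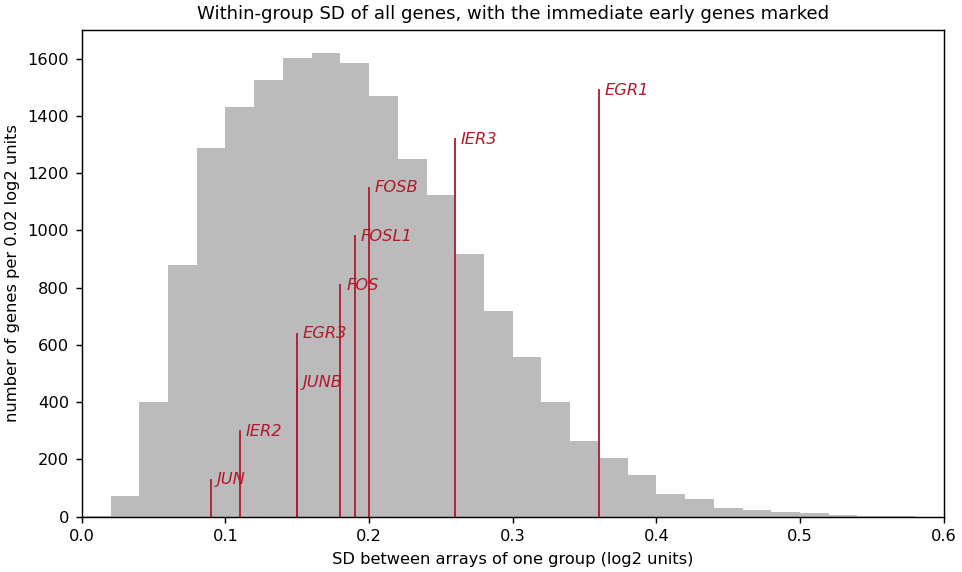
Number of genes (bars) by SD between arrays of one group in log2 units, with the 9 immediate early genes marked by red lines whose heights only separate the labels; 4 genes beyond 0.6 are not drawn. EGR1 (0.36) and IER3 (0.26) stand in the upper part, and JUN (0.09) and IER2 (0.11) in the lower part.

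The signals of the 9 genes did not move as a block from array to array. Over the 36 pairs of genes, Pearson r across 15 arrays ranged from -0.52 to 0.61 with a median of 0, and 1 pair was above 0.5 and 2 were below -0.5. Deviations from the group means, over the 14 arrays in groups with replicates, had a median r of -0.04, with 0 pairs above 0.5 and 2 below -0.5 (FOS with JUN at -0.57 and FOS with JUNB at -0.51). The median SD within groups was 0.18 for the 9 genes and 0.18 for all genes. These correlations are descriptions over arrays that share treatments, and those of other gene sets were not computed. Since 6 of the 9 genes lay below the median signal on every array, a shared movement of the dim genes could be missed.

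The inhibitors were compared at 15 µM and 6 h. With enzalutamide present, PF-543 minus ABC294640 ranged from log2 -0.38 for IER3 (95% interval -0.79 to 0.04) to 0.26 for FOSB, and all 9 genes overlapped between the groups, where 12.4% of all genes did not. For JUN the difference was 0.03 (-0.18 to 0.23), for JUNB 0.18 (-0.09 to 0.46), for FOS -0.05 (-0.35 to 0.26) and for EGR1 0.09 (-0.46 to 0.64). Without enzalutamide the comparison rests on the single ABC294640 array: JUNB differed by 0.42 (0.04 to 0.81, limma adjusted p = 0.826), EGR3 by 0.44 (0.05 to 0.82, adjusted p = 0.804) and EGR1 by 0.67 (-0.10 to 1.45, adjusted p = 0.935). The smallest adjusted p was 0.709 with enzalutamide and 0.804 without it.

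Some related genes did change. Of 80 measured genes in 4 lists of related genes, 11 passed in at least 1 comparison, the average over backgrounds included, as did 645 of all 17687 genes (3.65%). The lists were chosen with earlier results known, so nothing particular to them is read from this. For enzalutamide plus PF-543 against DMSO, where 2.02% of all genes passed, 3 of 10 other AP-1 genes were higher and 0 lower (list median log2 0.09, all genes -0.01), 3 of 37 other immediate early genes were higher and 0 lower (median -0.01), 1 of 18 regulators was higher (RPS6KA2, a kinase activated by ERK; median 0.10), and 2 of 16 ERK feedback genes were lower (median -0.08). ATF3, a stress-induced AP-1 factor, stands in both of the first lists. Against DMSO, enzalutamide (0.311% of all genes) gave 1 higher of 37 (MYC; median -0.04) and 1 lower of 16 (ERRFI1; median -0.25), as enzalutamide plus ABC294640 (0.701%) did (medians 0.05 and 0.03), and in both the other AP-1 genes and the regulators had 0 passing. PF-543 alone and ABC294640 alone had 0 in all 4 lists.

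ATF3 was higher where PF-543 was combined with enzalutamide, at 8.36 to 8.42, against 7.22 and 7.46 with enzalutamide alone, 7.5 to 7.68 with DMSO, 7.78 to 8.25 with PF-543 alone, 7.61 with ABC294640, and 7.43 to 7.68 with enzalutamide plus ABC294640. The differences were log2 1.05 against enzalutamide (SE 0.14, limma adjusted p = 0.0305), 0.82 against DMSO (SE 0.13, adjusted p = 0.00846) and 0.82 against enzalutamide plus ABC294640 (SE 0.13, adjusted p = 0.0358). Leaving out any of 10 arrays in turn ended the first call (all but the PF-543 arrays, the ABC294640 array and replicate 3 of enzalutamide plus ABC294640) and any of 13 the third (all but PF-543 replicate 2 and the ABC294640 array), with values of 0.93 to 1.17 and 0.75 to 0.87; the call against DMSO was kept under all 24 alternatives. JUND, the JUN family member that is expressed steadily in most cells, was at 8.58 to 9.15 in that group against 7.87 to 7.95 with DMSO (log2 0.91, SE 0.17, adjusted p = 0.0195). PF-543 alone, at 8.44 to 9, gave JUND 0.81 against DMSO (adjusted p = 0.0578), and PF-543 added to enzalutamide gave JUND 0.66 (adjusted p = 0.411). For ATF3, PF-543 alone gave 0.52 against DMSO (adjusted p = 0.092). Enzalutamide added to PF-543 gave ATF3 0.30 (adjusted p = 0.574), and the interaction of enzalutamide with PF-543 was 0.53 (adjusted p = 0.539). A rise of ATF3 particular to the combination was therefore not shown. The JUND call was lost without DMSO replicate 2 or without replicate 1 of the combination. JDP2, which can repress AP-1, was at log2 0.96 against DMSO (SE 0.19, adjusted p = 0.0245), a call that 5 single arrays could end (DMSO replicates 1 and 2 and any of the combination), and ZFP36L1, a protein that destabilises messenger RNAs, was at 0.42 (adjusted p = 0.0365), lost without any DMSO or combination array or PF-543 replicate 3 (7 arrays). RPS6KA2 (log2 0.86, adjusted p = 0.0461) was lost without any of 12 arrays, all but PF-543 replicates 2 and 3 and the ABC294640 array. Against DMSO, JDP2 and RPS6KA2 were at 0.47 and 0.79 with enzalutamide, 0.42 and 0.35 with PF-543, and 0.56 and 0.47 with enzalutamide plus ABC294640. The single ABC294640 array gave -0.14 and 0.16. PF-543 added to enzalutamide gave 0.48 and 0.07, and enzalutamide added to PF-543 gave 0.53 and 0.50. None of these passed. The rise of ZFP36L1 was not particular to enzalutamide plus PF-543. Against DMSO it was 0.35 with enzalutamide, 0.32 with PF-543 and 0.31 with enzalutamide plus ABC294640, none of which passed. The single ABC294640 array gave 0.27. For all treated groups against DMSO, ZFP36L1 differed by 0.33 (SE 0.07, adjusted p = 0.0418), a call kept in 7 of 22 alternatives.

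ERRFI1, an EGFR inhibitor induced by ERK signalling, was lower in every group that received enzalutamide: by log2 -0.93 with enzalutamide (SE 0.11, limma adjusted p = 0.00248), -0.72 with PF-543 added (SE 0.10, adjusted p = 0.00326) and -0.76 with ABC294640 added (SE 0.10, adjusted p = 0.0034), each against DMSO. The first call was lost without enzalutamide replicate 2. Without DMSO arrays, enzalutamide added to PF-543 gave -0.61 (SE 0.10, adjusted p = 0.0195), lost without replicate 1 or 3 of either group. DUSP4, a phosphatase that switches off ERK, was at 9.19 to 9.26 with enzalutamide plus PF-543 against 9.66 to 9.94 with DMSO (log2 -0.62, SE 0.12, adjusted p = 0.0245). That call was lost without DMSO replicate 1 or 2 or any array of the combination. The fall of DUSP4 was not particular to this combination. Against DMSO it was -0.69 with enzalutamide alone (adjusted p = 0.0631) and -0.34 with enzalutamide plus ABC294640 (adjusted p = 0.2). PF-543 alone gave DUSP4 0.01, and enzalutamide added to PF-543 gave -0.62 (adjusted p = 0.0603). MYC was higher with enzalutamide (log2 0.58, SE 0.09, adjusted p = 0.0134), with enzalutamide plus ABC294640 (0.57, SE 0.08, adjusted p = 0.00659) and with enzalutamide plus PF-543 (0.36, SE 0.08, adjusted p = 0.0384). The first was lost without either enzalutamide array, and the last without any of 12 arrays, all but the ABC294640 array and replicates 1 and 3 of enzalutamide plus ABC294640. Enzalutamide added 0.12 to MYC on PF-543 (adjusted p = 0.753). MYC was also above the DMSO arrays (13.98 to 14.07) with PF-543 alone (14.2 to 14.32) and on the ABC294640 array (14.31). For all treated groups against DMSO, where 2.03% of all genes passed, MYC differed by 0.41 (SE 0.06, adjusted p = 0.0113). That call was lost without DMSO replicate 2. The calls between single groups were also fitted on the arrays of each comparison alone, which leaves few degrees of freedom. Of those in the 4 lists, only ATF3 with enzalutamide plus PF-543 and ERRFI1 with enzalutamide plus ABC294640, both against DMSO, were kept.

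In the enzalutamide effect averaged over 3 backgrounds, where 0.882% of all genes passed, FOSL2 (FRA-2, of the FOS family) differed by log2 -0.61 (SE 0.12, limma adjusted p = 0.0421) and ATF2, a CRE-binding partner of JUN, at -0.25 (SE 0.05, adjusted p = 0.0489), 2 lower and 0 higher of 10 other AP-1 genes. NR4A1, an orphan nuclear receptor induced as an immediate early gene, was at -0.45 (SE 0.09, adjusted p = 0.0438), 1 lower beside 1 higher (MYC) of 37. FOSL2 was at 6.82 to 7.52 on the 8 arrays with enzalutamide against 7.3 to 8.1 on the 7 others, and NR4A1 at 9.48 to 10.01 against 9.98 to 10.4, so both overlapped. Single arrays could end these calls, 11 of them for FOSL2, 14 for ATF2 and 12 for NR4A1, with adjusted p up to 0.118, 0.131 and 0.117. The calls were kept without DMSO replicate 3, PF-543 replicate 2 or replicate 2 of enzalutamide plus ABC294640 for FOSL2, without PF-543 replicate 3 or replicate 1 of enzalutamide plus ABC294640 for NR4A1, while any of the 14 arrays ended that of ATF2. DUSP4 (log2 -0.59, adjusted p = 0.00345), ERRFI1 (-0.66, adjusted p = 0.000193) and MYC (0.32, adjusted p = 0.0125) kept their calls under the 22 alternatives run. The enzalutamide side of ERRFI1 ended at 13.18 and the other side began at 13.41.

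**Figure D5:**
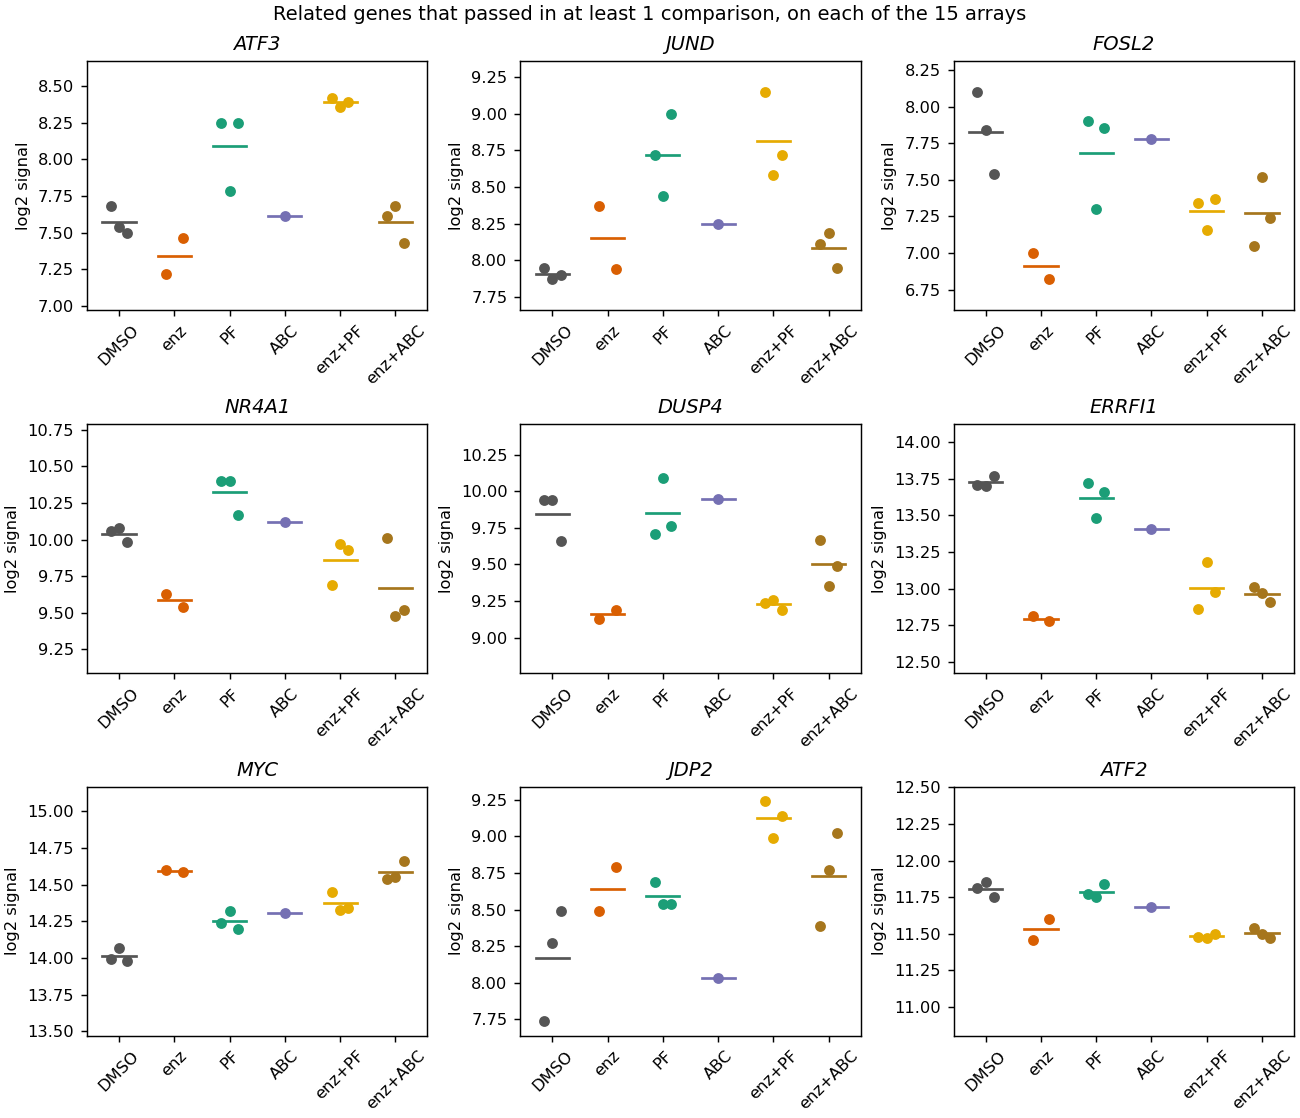
Log2 signal of 9 related genes that passed in at least 1 comparison, on each array (points) with group means (bars); every panel spans 1.7 log2 units. ATF3 and JUND are highest with PF-543 plus enzalutamide, while ERRFI1, DUSP4, NR4A1 and FOSL2 have lower means in each group that received enzalutamide than in DMSO.

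By likeness of pattern over the 15 arrays, among genes with a mean above the median gene, the mean of the 9 standardised genes was closest to CRTC2, RARG, SPPL3 and PTP4A3 (Pearson r 0.8 each) and PDZD8 (0.79). The closest single genes were CNIH4 for JUN (r 0.89), ZNF830 for JUNB (0.87), NEDD4L for FOS (0.81), DNAJC18 for FOSB (0.79), MME for FOSL1 (0.84), WDR11 for EGR1 (0.81), ZNF146 for EGR3 (0.84), TGIF2 for IER2 (0.82) and MIEF1 for IER3 (0.89). Each is the highest among many correlations over 15 arrays that share treatments, and is a description only.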

How the data were processed

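RNA from 15 samples of C42B cells (100 ng each) was labelled for whole-transcript arrays, per the labels' protocols. The authors deposited log2 signals, one per probe set, made with RMA and Transcriptome Analysis Console 4.02, per the submitters' processing notes; the RMA variant, annotation version and build of the probe sets were not given in the sources used here. RMA normalizes arrays to each other, which can remove a shift common to most transcripts. The platform annotation named 1 symbol for 17709 of 21448 probe sets, several for 0 and none for 3739; all 17709 matched RefSeq by Entrez identifier, and the probe set of highest mean was kept for the 20 genes with several, which left 17687 genes. Groups came from the sample titles.

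Group means were estimated over all 15 arrays in limma 3.58.1 (R 4.3.3) with empirical Bayes moderation (9 residual and 3.82 prior degrees of freedom), so the single ABC294640 array borrows the spread of the others, and p-values were adjusted over all genes (Benjamini-Hochberg, threshold 0.05). The number of arrays limits the precision. The 10 genes, the related lists and the comparisons were chosen with earlier results of these data known. All members are named, with the related genes that passed and, for likeness, the genes of highest r by a fixed rule; the average over backgrounds and the F-test were added after the values were seen. Alternatives changed normalization, filters, prior, weights, samples and pairing. The fit was tested on simulated data. Same-numbered arrays did not deviate together (26 pairs, r -0.04 to 0.07), and the number of identical arrays was 0. Figures used matplotlib 3.10.9.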

Additional observations from a re-analysis of the deposited data

How the results depend on the processing

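The count of immediate early genes that passed stayed at 0 in 361 of 363 recomputed counts, over 10 alternative settings and 15 fits that each left out an array. The exceptions were both for enzalutamide plus PF-543 against DMSO and both JUN: the count was 1 with the dimmest 25% of genes left out, and leaving out single arrays gave 0 to 1, with 1 without DMSO replicate 3. With the dim genes left out, 549 of all genes passed in place of 358, and fewer genes were tested. By mean signal FOS (24.3 percentile), FOSB (24.4) and EGR3 (5.59) lay in the dimmest 25%. Counts at that setting therefore do not cover these genes. Among the differences recomputed, which were some of those of JUN, JUNB, FOSL1 and FOS and those of related genes that passed, 0 changed sign; those of FOSB, EGR1, EGR3, IER2 and IER3 were not recomputed one by one. JUN in the average over backgrounds ranged from log2 -0.29 to -0.24 (adjusted p 0.0561 to 0.229) and JUNB from 0.29 to 0.36 (adjusted p 0.0836 to 0.259). With the replicate number as a block, over the 14 numbered arrays, the count was 0 in each of the 9 comparisons it could be fitted for, with a smallest adjusted p of 0.101, and 236 of all genes passed for enzalutamide plus PF-543 against DMSO. With the block, the calls of MYC for enzalutamide, of MYC, ZFP36L1 and RPS6KA2 for enzalutamide plus PF-543, of ATF3 against either other enzalutamide group and of ERRFI1 for enzalutamide added to PF-543 were lost. Quantile normalization ended the MYC and RPS6KA2 calls for enzalutamide plus PF-543, cyclic loess that of MYC, testing all probe sets those of RPS6KA2, ATF2 and NR4A1, and median centring that of ATF2. The call of ZFP36L1 for all treated groups was ended by quantile normalization, cyclic loess and array weights. Same-numbered arrays did not deviate together, but the labels do not say whether the replicate numbers mark a pairing. Comparisons with the ABC294640 array could not be fitted with the block or without that array. Dim probe sets limit what can be seen for FOS, FOSB, EGR1 and EGR3.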
